A study of Homo sapiens with 3 samples.

Results

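The genes of the TNF ligand and receptor superfamilies were examined in Cal62 cells, a human thyroid cancer cell line, after knockdown of ADAR1, the enzyme that edits adenosine to inosine in double-stranded RNA. Members were the protein-coding genes whose symbol starts with TNFSF or TNFRSF and a number. This rule took 32 of the 58333 genes in the table, 11 ligands and 21 receptors. Poly(A)+ RNA was sequenced from cells transfected with a control siRNA (siControl), with siADAR1 #1 or with siADAR1 #2, by lipid transfection of the same line. The labels name 1 sample for each transfection with 2 columns of values, and these were taken as the 2 biological replicates given in the study's methods, so 6 libraries were compared. They come from 1 cell line, all carry a transfected siRNA, and the time between transfection and RNA isolation was not given for these libraries in the sources used here.

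TNF superfamily ligands are mostly trimeric membrane proteins, many of which can be shed, and each binds a limited set of receptors. Receptors with a death domain can recruit FADD and caspase-8 and start apoptosis, whereas the others bind TRAF adaptors and activate NF-kappaB and JNK. Decoy receptors bind ligand without a working death domain. In tumor cells the TRAIL and TNF receptors are the best known members, and several of the remaining ligands are known mainly for costimulating T cells.

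Between 30114840 and 50029763 reads on genes per library were recovered as whole numbers from the deposited log2 values. A normalized count is such a read count divided by the size factor of its library, a log2FC is a difference of mean log2 values, and adjusted p-values are by limma over all genes tested. The siADAR1 #2 replicate 2 library was the shallowest. ADAR, the targeted gene, had 10906 and 11701 normalized counts with siControl, 1328 and 2246 with siADAR1 #1 and 1663 and 2928 with siADAR1 #2, so it was lower in every siADAR1 library (log2FC -2.71 ± 0.30 SE, adjusted p = 0.00355 with siADAR1 #1, and -2.35 ± 0.30, adjusted p = 0.00153 with siADAR1 #2, limma). Of 7 thyroid markers, PAX8 was high (2542 to 15868), NKX2-1 was at 0 in all 6 libraries and TG and SLC5A5 were at 62.4 or below. The summed level of that list was 14298 and 16115 with siControl, 10509 and 15226 with siADAR1 #1 and 2819 and 5705 with siADAR1 #2. Most of this sum was PAX8, which was lower with siADAR1 #2 (log2FC -1.99, adjusted p = 0.00411, limma). TSHR, the receptor for thyrotropin, had 70.8 and 73.4 with siControl, 61.7 and 41.5 with siADAR1 #1 and 95.3 and 106.9 with siADAR1 #2 and was not called against siControl, and TG, thyroglobulin, was not called either. Keratins KRT8 and KRT18 and the mesenchymal gene FN1 ranged from 23116 (KRT18) to 183632 (FN1). The other epithelial markers were lower, with KRT19 and EPCAM between 1681 (EPCAM) and 7147 (KRT19). CDH1 had 210 and 39.8 with siControl, 49.6 and 52.8 with siADAR1 #1 and 196 and 36.6 with siADAR1 #2. With siADAR1 #2, KRT18 was called lower (log2FC -0.85, adjusted p = 0.00276) and KRT19 higher (1.18, adjusted p = 0.000696, limma). KRT8, EPCAM and CDH1 were not called with either siRNA. Among the immune markers, CD3E was at 0 throughout, and MS4A1, PTPRC and NKG7 did not exceed 6.28. CD68, a macrophage marker, had 245 and 417 with siControl, 425 and 610.5 with siADAR1 #1 and 796 and 1566 with siADAR1 #2. The summed endothelial markers were 35.7 to 62.1 in siControl and 39.3 to 56.5 in the siADAR1 libraries, and the summed mesenchymal markers (VIM, CDH2 and FN1) were 269905 and 281768 in siControl, 78846 and 131133 after siADAR1 #1 and 85759 and 152929.5 after siADAR1 #2. Of these 3 genes, VIM was called lower with siADAR1 #1 (log2FC -3.32, adjusted p = 0.0054) and not with siADAR1 #2 (-0.76, adjusted p = 0.259). FN1 was called lower with siADAR1 #2 (-1.82, adjusted p = 0.0164) and not with siADAR1 #1 (-0.99, adjusted p = 0.156, limma). CDH2 was not called with either siRNA. The part of these marker levels in the member values was not tested.

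Expression was first described in siControl. Genes were tested when their normalized counts averaged at least 10 across the libraries, and 22 members (7 ligands and 15 receptors) were among the 20247 that did. The same number of members had more than 3 reads in every library. A mean above 1000 normalized counts was reached by 7 members, all of them receptors. Divided by exon length, the level was highest for TNFRSF12A (Fn14, the receptor of TWEAK), with 4537 and 3916 normalized counts per kb in the siControl replicates, at percentile 97.7 of the 14274 protein-coding genes tested. TNFRSF10B (DR5, a death receptor for TRAIL) followed with 1110.2 ± 102 per kb (SD, n = 2) and TNFRSF1A (the main TNF receptor, with a death domain) with 1060.1 ± 186. TNFRSF11B (osteoprotegerin, a secreted decoy for RANKL and TRAIL) had 798 ± 340, TNFRSF10D (a TRAIL decoy) 586 ± 98.5, TNFRSF10A (DR4, the other TRAIL death receptor) 473 ± 21.4, TNFRSF21 (DR6) 408 ± 86.0 and TNFSF9 347 ± 19.7. Neighbours in this order from TNFRSF10B to TNFSF9 overlapped between replicates, except TNFRSF10D and TNFRSF10A. TNFSF13 came next at 79.7 ± 5.80. In siControl the median level was 10.02 per kb over the 7 tested ligands and 72.8 per kb over the 15 tested receptors.

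**Figure D1:**
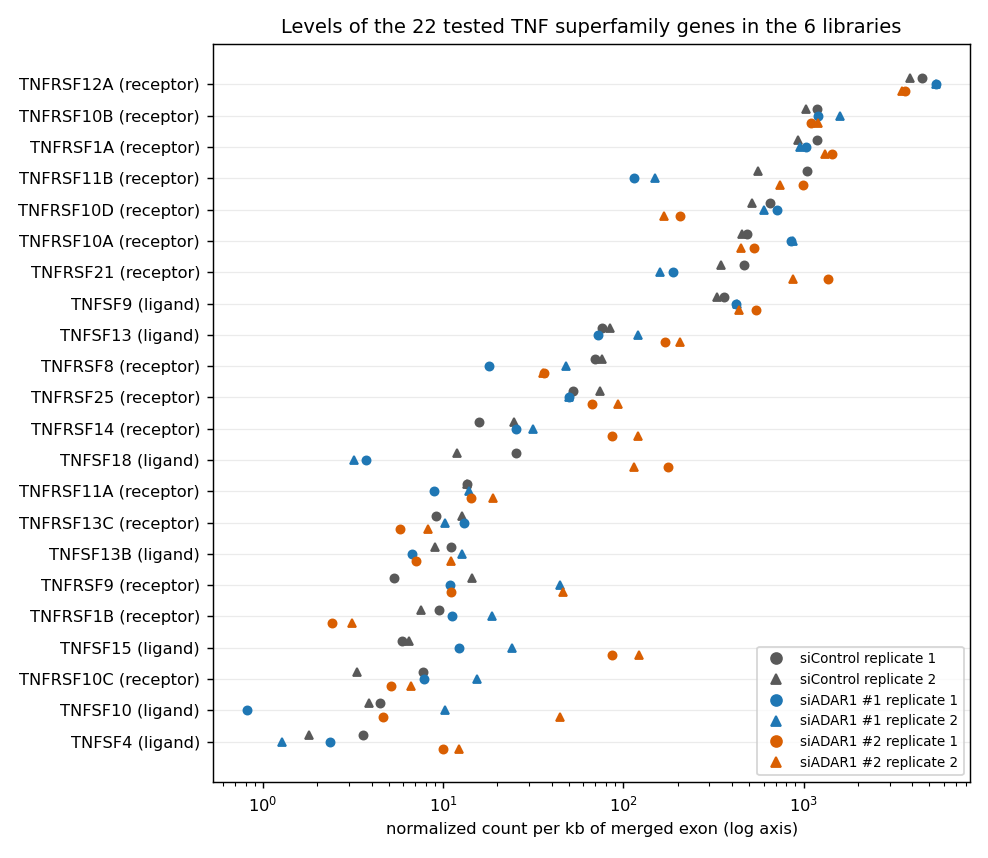
Normalized count per kb of exon (log axis) of the 22 tested members in each of the 6 libraries, ordered by the siControl mean, with color for the transfection and shape for the replicate. TNFRSF12A stands highest at 4537 and 3916 per kb in siControl, and the siADAR1 #2 points of TNFSF15 and TNFSF18 lie far to the right of their siControl points.

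With siADAR1 #1 against siControl, 5 of the 22 tested members were called (adjusted p under 0.05 and log2FC beyond 0.5), 2 higher and 3 lower. The background for genes tested was 17.4% called, 6.39% higher and 11.0% lower, beside 22.7% of the members. With siADAR1 #2, 8 members were called, 6 higher and 2 lower, which is 36.4% beside a background of 27.5% (11.6% higher and 16.0% lower). Between the siRNAs 11 members differed of the 22, beside a background of 33.7%. In this fit the shares of called members lay above the background, with 22 genes in the denominator, and no more was read from them. At a filter of 50 normalized counts, the share with siADAR1 #2 was near its background, 37.5% beside 36.0%. It was 31.2% beside 24.1% with siADAR1 #1 and 56.2% beside 42.5% between the siRNAs. The median log2FC over the tested members was 0.13 with siADAR1 #1 and 0.30 with siADAR1 #2, beside -0.03 and -0.02 over all genes. Both comparisons share the siControl libraries, so their values are given side by side below. Differences between the siRNAs are given as siADAR1 #1 minus siADAR1 #2 on the log2 scale, and paired values are those of replicate 1 and replicate 2. In bulk RNA, fewer expressing cells and less RNA per cell cannot be told apart.

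**Figure D2:**
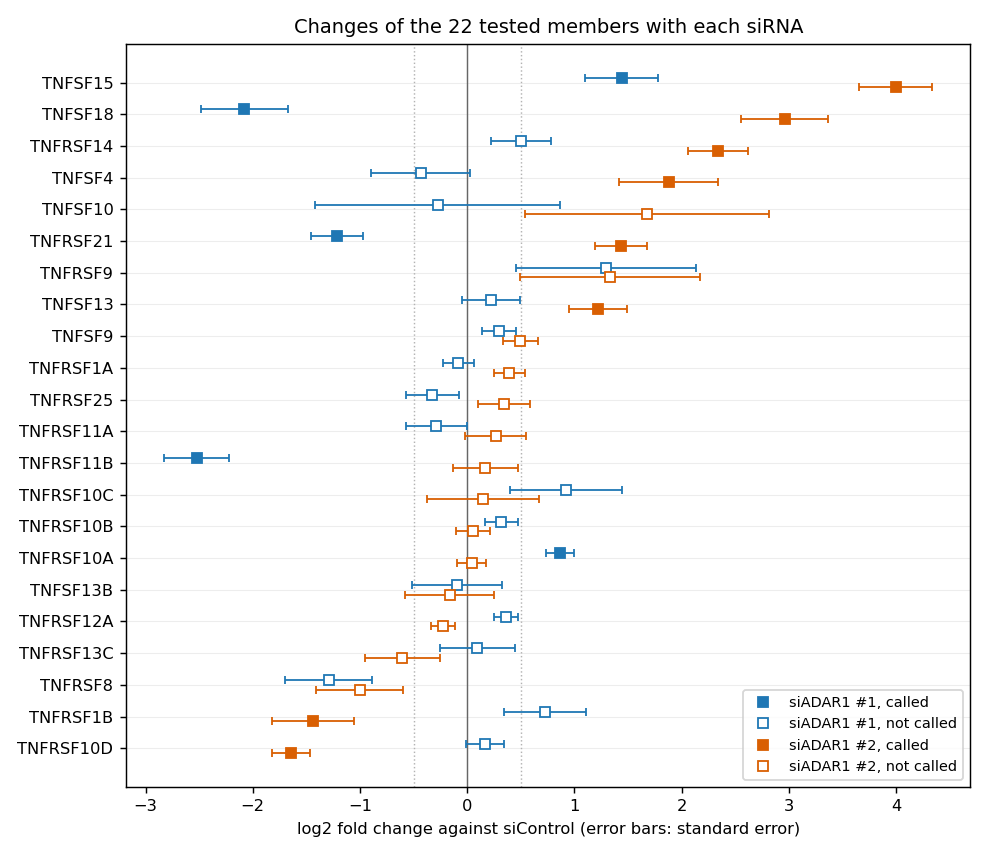
log2 fold change against siControl with its standard error for the 22 tested members, with siADAR1 #1 in blue and siADAR1 #2 in orange, and filled squares for called changes. TNFSF15 is filled to the right for both siRNAs, while TNFSF18 and TNFRSF21 are filled on opposite sides.

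TNFSF15 (TL1A, a ligand of the death receptor DR3) was the only member called higher with both siRNAs. It had 45.7 and 49.98 normalized counts with siControl, 95.4 and 188 with siADAR1 #1 and 675 and 951 with siADAR1 #2. All 4 siADAR1 libraries were above both siControl libraries, and both siADAR1 #2 libraries were above both siADAR1 #1 libraries. The log2FC was 1.44 ± 0.34 (SE) with siADAR1 #1 (adjusted p = 0.0252) and 4.0 ± 0.34 with siADAR1 #2 (adjusted p = 0.000458), and the siRNAs differed by -2.55 ± 0.34 (adjusted p = 0.00124, limma). The call with siADAR1 #1 was lost without siControl replicate 1 (adjusted p = 0.136), without siControl replicate 2 (0.106) and without siADAR1 #1 replicate 2 (0.0706, log2FC 0.96), and over all alternatives its adjusted p ran from 0.00713 to 0.136. The gene lies at chr9:114784652-114806039 on the minus strand (GRCh38, GENCODE 44), 87.3 kb from TNFSF8, the CD30 ligand, which was below the filter with 2, 1, 0, 1, 7 and 6 reads in the order of libraries used above. TNFRSF25 (DR3), its receptor, was measured at 223 and 316 normalized counts with siControl, 211 and 212 with siADAR1 #1 and 287 and 397 with siADAR1 #2, and was not called with either siRNA (log2FC -0.32 and 0.34, adjusted p = 0.405 and 0.338). TNFRSF6B (the soluble decoy for TL1A, LIGHT and FasL) was listed at 0 in all 6 libraries, and 100% of its exon bases are shared with the readthrough gene RTEL1-TNFRSF6B, which had 581 to 866 normalized counts.

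TNFSF18 (the ligand of GITR) moved in opposite directions with the siRNAs. It had 69.7 and 32.6 normalized counts with siControl, 10.3 and 8.79 with siADAR1 #1 (11 and 7 reads) and 485 and 313 with siADAR1 #2, so the 3 transfections did not overlap. It was downregulated with siADAR1 #1 (log2FC -2.08 ± 0.41, adjusted p = 0.0142) and upregulated with siADAR1 #2 (2.96 ± 0.41, adjusted p = 0.00190), and the difference between the siRNAs, -5.04 ± 0.41, was the largest of any member tested (adjusted p = 0.000263, limma). The fall with siADAR1 #1 was no longer called without siControl replicate 1 (adjusted p = 0.0896) or without siADAR1 #1 replicate 1 (0.0566), with a range of 0.00458 to 0.0896 over the alternatives. TNFSF4 (the ligand of OX40) lies 132.8 kb away on chromosome 1 and had 14.2 and 7.14 normalized counts with siControl, 9.35 and 5.02 with siADAR1 #1 and 39.7 and 48.3 with siADAR1 #2. Only the siADAR1 #2 libraries stood apart (log2FC 1.88 ± 0.46, adjusted p = 0.0188, and -0.44 ± 0.46, adjusted p = 0.564 with siADAR1 #1), and the siRNAs differed by -2.32 ± 0.46 (adjusted p = 0.00651, limma). The call against siControl rests on 4 to 35 reads per library and was lost without siControl replicate 2 (0.0996), siADAR1 #2 replicate 1 (0.0687) or siADAR1 #2 replicate 2 (0.0843), with a range of 0.0116 to 0.0996. The receptors of both ligands are T-cell genes that neighbour each other 4.7 kb apart, and they were below the filter, TNFRSF18 (GITR) with 0 to 7 reads and TNFRSF4 (OX40) with 0 to 8 reads per library. The immune marker CD68, at the levels above, was also called higher with siADAR1 #2 (log2FC 1.80, adjusted p = 0.00975, limma). PTPRC, the pan-leukocyte marker CD45, had 3.27 and 3.06 normalized counts with siControl and 4.68 and 6.28 with siADAR1 #1 and was at 0 in both siADAR1 #2 libraries, which allows up to 3 reads in each, and CD3E was at 0 in all 6. The part of these marker levels in the ligand values was not tested.

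The TRAIL receptors lie side by side on chromosome 8 and did not move together. TNFRSF10A had 1429 and 1340.2 normalized counts with siControl, 2490.3 and 2560.02 with siADAR1 #1 and 1548 and 1311 with siADAR1 #2. Its level was thus higher in both siADAR1 #1 libraries (log2FC 0.87 ± 0.13, adjusted p = 0.00696), while with siADAR1 #2 the log2FC was 0.04 (95% CI -0.27 to 0.35, adjusted p = 0.847, limma). TNFRSF10D, 26.4 kb from it, had 2316 and 1824 with siControl, 2516 and 2127 with siADAR1 #1 and 726 and 592 with siADAR1 #2. Here the siADAR1 #2 libraries were the ones that stood apart, at 0.318 times the siControl mean (log2FC -1.65 ± 0.18, adjusted p = 0.000850, against 0.17 ± 0.18, adjusted p = 0.555, with siADAR1 #1). The siRNAs differed for both genes, by 0.82 ± 0.13 (adjusted p = 0.00272) and 1.82 ± 0.18 (adjusted p = 0.000448, limma). The rise of TNFRSF10A was lost without siControl replicate 1 (adjusted p = 0.0584) or replicate 2 (0.0510), with a range of 0.00450 to 0.0584, and 16.7% of its exon bases are overlapped by genes on the opposite strand, TNFRSF10A-AS1 and TNFRSF10A-DT. TNFRSF10A-AS1 had 110 and 74.5 normalized counts with siControl, 214 and 138 with siADAR1 #1 and 78.2 and 74.7 with siADAR1 #2. It was not called against siControl (log2FC 0.91, adjusted p = 0.0792, and -0.24, adjusted p = 0.606), while the siRNAs differed by 1.14 (adjusted p = 0.0216, limma). Strand use in counting was not given, and reads of TNFRSF10A and TNFRSF10A-AS1 in the shared stretch may be mixed. TNFRSF10B, with 5201 to 7977 normalized counts in the 6 libraries, was not called (log2FC 0.32 ± 0.16, adjusted p = 0.200, and 0.05 ± 0.16, adjusted p = 0.832). TNFRSF10C, a decoy anchored to the membrane, had only 5 to 19 reads per library and shares 33.0% of its exon bases with other genes, so its values (log2FC 0.92 ± 0.52 and 0.14 ± 0.52) remain uncertain.

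TNFRSF11B, the secreted decoy of this group, had 2609 and 1400.4 normalized counts with siControl, 289 and 378 with siADAR1 #1 and 2497 and 1850.01 with siADAR1 #2. The siADAR1 #1 libraries lay below all 4 others, at 0.166 times the siControl mean, while the siADAR1 #2 values fell within the siControl range. The log2FC was -2.52 ± 0.30 with siADAR1 #1 (adjusted p = 0.00384) and 0.17 ± 0.30 with siADAR1 #2 (95% CI -0.53 to 0.87, adjusted p = 0.717), and the siRNAs differed by -2.69 ± 0.30 (adjusted p = 0.000669, limma). It was the only member whose call with siADAR1 #1 was kept under every alternative. Its other partners gave little signal. TNFSF11 (RANKL) had 1 read in siControl replicate 2 and 0 in the others, and TNFRSF11A (RANK) had 79.5 to 169.9 normalized counts with no call (log2FC -0.29 and 0.27).

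Among the other receptors, TNFRSF21 (DR6, a death-domain receptor) changed in opposite directions. Its normalized counts were 1685 and 1247 with siControl, 682 and 570.3 with siADAR1 #1 and 4916 and 3129 with siADAR1 #2, with no overlap between transfections. The log2FC was -1.21 ± 0.24 with siADAR1 #1 (adjusted p = 0.0151) and 1.43 ± 0.24 with siADAR1 #2 (adjusted p = 0.00413), and the siRNAs differed by -2.65 ± 0.24 (adjusted p = 0.000368, limma). The fall with siADAR1 #1 was lost without siControl replicate 1 (adjusted p = 0.114) or replicate 2 (0.0510) and with eBayes without a trend (0.0670), with a range of 0.00197 to 0.114. TNFRSF14 (HVEM, the receptor of LIGHT and a binding partner of BTLA) had 98.0 and 154 normalized counts with siControl, 157 and 196 with siADAR1 #1 and 536 and 746 with siADAR1 #2. It was upregulated with siADAR1 #2 (log2FC 2.34 ± 0.28, adjusted p = 0.00119) but not called with siADAR1 #1 (0.50 ± 0.28, adjusted p = 0.258), and the siRNAs differed by -1.83 ± 0.28 (adjusted p = 0.00218). The antisense gene TNFRSF14-AS1 overlaps 13.3% of its exon bases and had 26.1 and 5.10 normalized counts with siControl, 5.61 and 13.8 with siADAR1 #1 and 90.7 and 67.4 with siADAR1 #2 (log2FC 2.47, adjusted p = 0.0270 with siADAR1 #2, limma). Whether the counting used strand was not given, and reads of the 2 genes in the shared stretch may be mixed. LIGHT itself, TNFSF14, was below the filter with 4 to 11 reads per library.

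The 2 TNF receptors differed in level, and their changes were not tested against each other. TNFRSF1A, which carries a death domain, had 5010.4 and 3905 normalized counts with siControl, 4342 and 4016 with siADAR1 #1 and 6075 and 5566 with siADAR1 #2, and was not called (log2FC -0.08 ± 0.14, adjusted p = 0.735, and 0.39 ± 0.14, adjusted p = 0.0753). Between the siRNAs it differed by -0.48 ± 0.14 (adjusted p = 0.0339, limma), short of the threshold of 0.5. TNFRSF1B (TNFR2, without a death domain) was far lower, with 35.9 and 28.6 with siControl, 42.1 and 70.3 with siADAR1 #1 and 9.07 and 11.7 with siADAR1 #2. Its siADAR1 #2 libraries, with 8 reads each, lay below all others (log2FC -1.44 ± 0.38, adjusted p = 0.0256, against 0.72 ± 0.38, adjusted p = 0.235, with siADAR1 #1), and the siRNAs differed by 2.16 ± 0.38 (adjusted p = 0.00395, limma). That call with siADAR1 #2 was lost when either library of siControl (adjusted p = 0.134 without replicate 1 and 0.0725 without replicate 2) or of siADAR1 #2 (0.116 and 0.0546) was left out, with a range of 0.0196 to 0.134. TNFRSF12A, the member with the highest level, had 8171 and 7052 with siControl, 9789 and 9749 with siADAR1 #1 and 6610 and 6353 with siADAR1 #2. Neither siRNA passed the test against siControl (log2FC 0.36 ± 0.11, adjusted p = 0.0603, and -0.23 ± 0.11, adjusted p = 0.168), while the siRNAs differed from each other by 0.59 ± 0.11 (adjusted p = 0.00531). Its ligand TNFSF12 (TWEAK) had 0 to 6 reads per library.

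**Figure D3:**
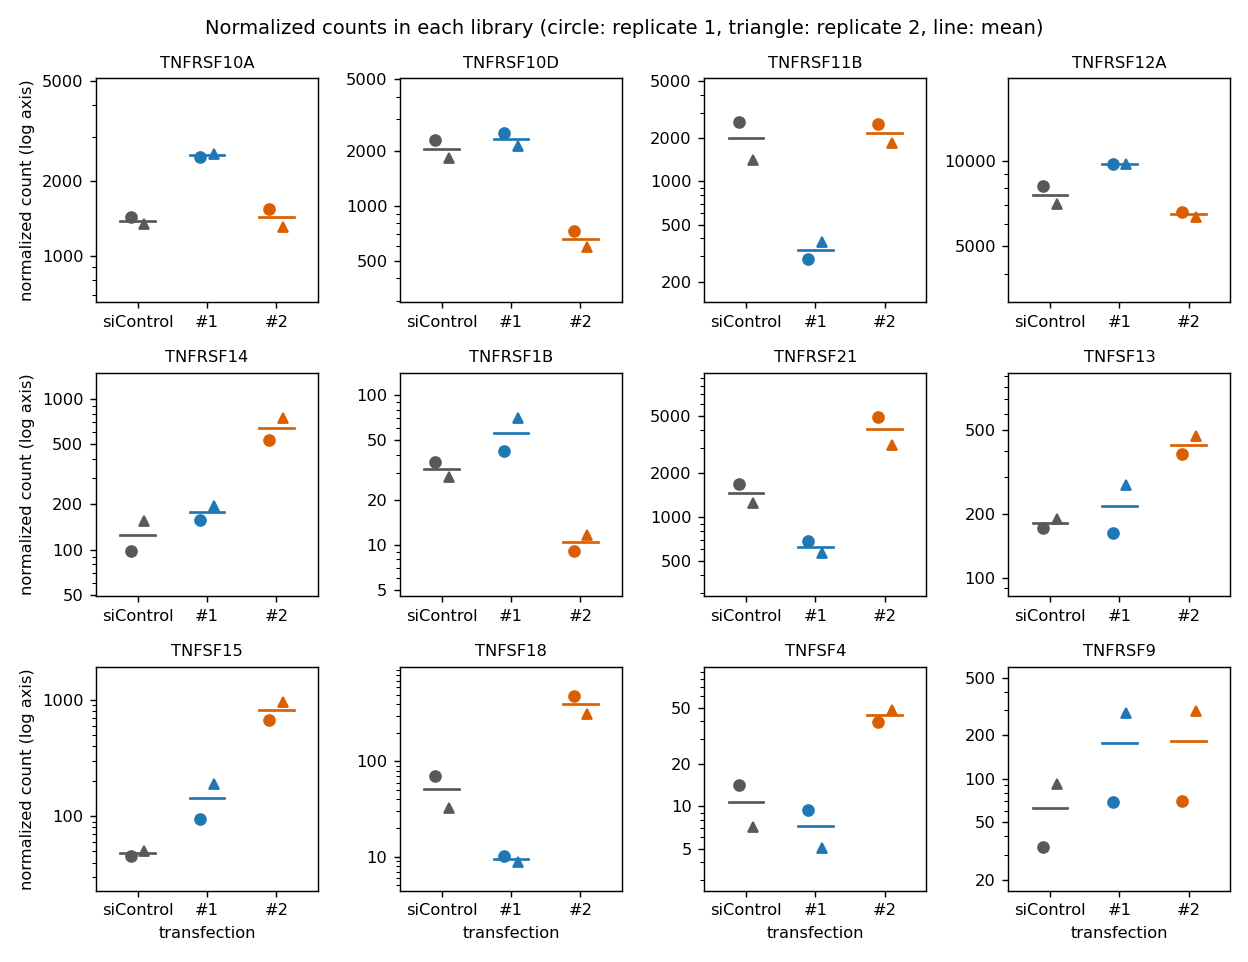
Normalized counts (log axis) in the 6 libraries for the 11 members called in any comparison and for TNFRSF9, with circles for replicate 1, triangles for replicate 2 and a line at the mean. TNFSF18 and TNFRSF21 fall on opposite sides of siControl with the siRNAs, and TNFRSF9 is higher in the triangle than in the circle of each transfection.

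Of the BAFF and APRIL group, which is known for supporting B cells, TNFSF13 (APRIL) was called. It had 172 and 191 normalized counts with siControl, 164 and 275 with siADAR1 #1 and 386 and 467 with siADAR1 #2. Both siADAR1 #2 libraries and replicate 2 of siADAR1 #1 stood above both siControl libraries. It was called higher with siADAR1 #2 (log2FC 1.22 ± 0.27, adjusted p = 0.0127, limma) and not called with siADAR1 #1 (0.23 ± 0.27, adjusted p = 0.613). The call was lost without siControl replicate 1 (adjusted p = 0.0863), siControl replicate 2 (0.0586) or siADAR1 #2 replicate 2 (0.0690), with a range of 0.00399 to 0.0863. The difference between the siRNAs, -0.99 ± 0.27 (adjusted p = 0.0232), was -0.62 without siADAR1 #1 replicate 1 (0.101) and was also lost without siADAR1 #2 replicate 1 (0.0587) or replicate 2 (0.115) and with eBayes without a trend (0.0533), with a range of 0.00712 to 0.115. The exons of TNFSF13 are shared in 55.5% of their bases with the readthrough gene TNFSF12-TNFSF13, which had 3 reads in siControl replicate 1 and 0 in the others. TNFSF13B (BAFF) had 20.6 to 38.9 normalized counts with overlapping transfections (log2FC -0.09 and -0.16). TNFRSF13C, the BAFF receptor, had 22.7 to 51.4 and was not called (log2FC 0.10, adjusted p = 0.878, and -0.60, adjusted p = 0.232), and the B-cell receptors TNFRSF13B and TNFRSF17 were below the filter with 0 to 4 and 3 to 14 reads.

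Of the remaining costimulatory members, TNFRSF8 (CD30) was lower in all 4 siADAR1 libraries without passing the test. It had 265 and 291 normalized counts with siControl, 68.3 and 182 with siADAR1 #1 and 138 and 136 with siADAR1 #2 (log2FC -1.29 ± 0.41, adjusted p = 0.0643, and -1.0 ± 0.41, adjusted p = 0.103, limma). It was called with siADAR1 #1 without that siRNA's replicate 2 (log2FC -1.98, adjusted p = 0.00477), with the replicate number as a block (0.0319) and by voom on the recovered reads (0.0404), and with siADAR1 #2 when a siADAR1 #1 library was left out (0.0105 without replicate 1 and 0.0123 without replicate 2) or both were (0.0103), with ranges over the alternatives of 0.00477 to 0.233 and 0.0103 to 0.299. TNFSF9, the ligand of CD137, was the highest of the ligands, with 589 and 544 with siControl, 692 and 699.7 with siADAR1 #1 and 889 and 719 with siADAR1 #2. All siADAR1 libraries lay above siControl, by a small amount that was not called (log2FC 0.30 ± 0.16, adjusted p = 0.246, and 0.50 ± 0.16, adjusted p = 0.0520). TNFRSF19 (TROY) was below the filter with 0 to 14 reads per library.

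TNFRSF9 (CD137, a receptor that NF-kappaB is known to induce) and TNFSF10 (TRAIL, an interferon-inducible ligand) had the largest differences between replicates of all tested members in the siADAR1 transfections. TNFRSF9 had 33.8 and 91.8 normalized counts with siControl, 69.2 and 283 with siADAR1 #1 and 70.3 and 294 with siADAR1 #2. Replicate 2 was the higher one each time, by 2.72, 4.08 and 4.19 times, and each siADAR1 library was above the siControl library of its own number. Without the replicate number the log2FC was 1.29 ± 0.84 (adjusted p = 0.331) and 1.33 ± 0.84 (adjusted p = 0.276). With the replicate number as a block it was called with both siRNAs (adjusted p = 0.0132 and 0.00730, limma), the lowest values over its alternatives, which reached 0.862 and 0.830. TNFSF10 had 15.2 and 13.3 with siControl, 2.81 and 35.2 with siADAR1 #1 and 15.9 and 152 with siADAR1 #2. Its replicates were alike in siControl, while in the siADAR1 transfections replicate 2 was 12.5 and 9.6 times replicate 1, and it was not called (log2FC -0.28 ± 1.14, adjusted p = 0.894, and 1.68 ± 1.14, adjusted p = 0.311).

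The same comparison was made for 19 NF-kappaB target genes known to be induced by TNF. In siControl 15 of 19 were higher in replicate 2 than in replicate 1 (median log2 difference 0.26), in siADAR1 #1 19 of 19 (1.56), and in siADAR1 #2 16 of 19 (0.85), beside medians of -0.07, 0.04 and 0.01 over all genes tested. The 22 members had medians of -0.18, 0.35 and 0.27, with 8, 15 and 13 of them higher in replicate 2. CXCL8, a neutrophil chemokine, had 57.7 and 266 normalized counts with siControl, 217 and 2269 with siADAR1 #1 and 89.6 and 1022 with siADAR1 #2. ICAM1, an adhesion molecule, had 1441 and 2974, 2959.8 and 16249, and 4011 and 5304 in the same order. The siADAR1 #1 replicate 2 library was the highest of the 6 for both. The part of this replicate difference in the member values was not tested.

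**Figure D4:**
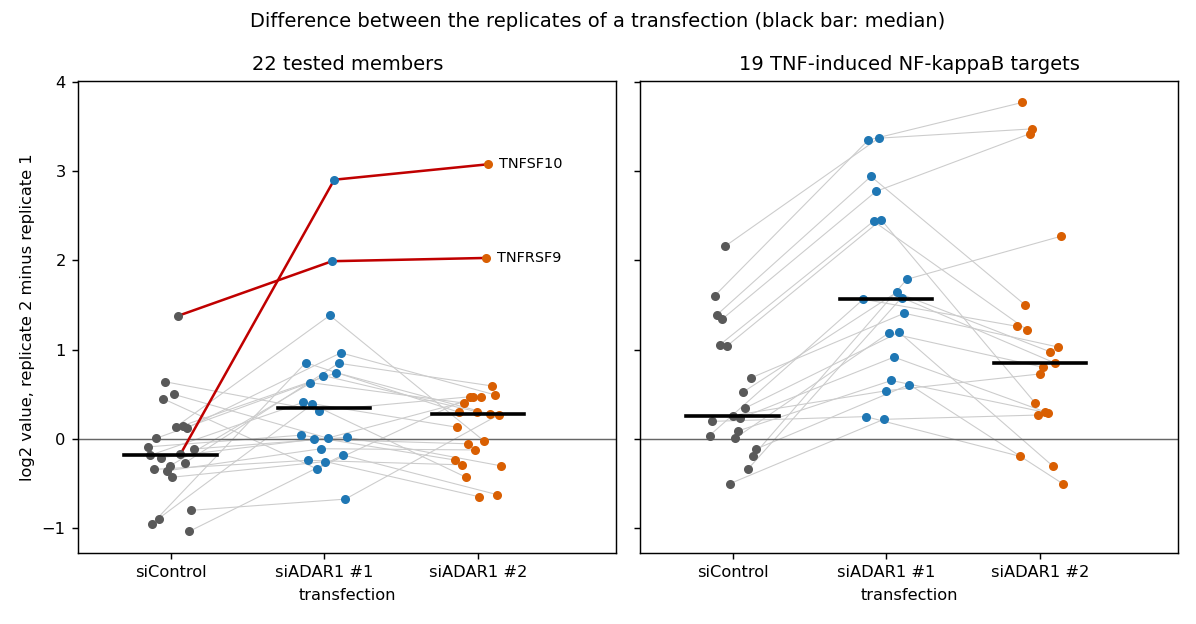
Difference between replicate 2 and replicate 1 on the log2 scale in each transfection, for the 22 tested members and for 19 TNF-induced NF-kappaB targets, with points for genes, lines joining each gene and black bars at the medians. The target medians are 0.26, 1.56 and 0.85, and TNFRSF9 and TNFSF10 are the 2 members that reach differences of about 2 and 3 in the siADAR1 transfections.

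Promoters of TNFRSF9, TNFSF10 and TNFSF15 are shown because their genes had the largest differences between replicates or the largest rise. They are RefSeq sequences of GRCh38.p14, 300 bases each (250 before and 50 after the start site), written 5′ to 3′ on the minus strand that carries each gene, with motif matches in capitals.
TNFRSF9, chr1:7940790-7941089: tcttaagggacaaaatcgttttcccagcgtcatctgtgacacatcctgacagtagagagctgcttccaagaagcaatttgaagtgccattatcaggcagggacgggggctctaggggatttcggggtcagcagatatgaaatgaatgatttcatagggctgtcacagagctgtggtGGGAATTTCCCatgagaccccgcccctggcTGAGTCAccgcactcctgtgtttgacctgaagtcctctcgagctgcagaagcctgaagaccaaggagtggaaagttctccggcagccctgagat
TNFSF10, chr3:172523381-172523680: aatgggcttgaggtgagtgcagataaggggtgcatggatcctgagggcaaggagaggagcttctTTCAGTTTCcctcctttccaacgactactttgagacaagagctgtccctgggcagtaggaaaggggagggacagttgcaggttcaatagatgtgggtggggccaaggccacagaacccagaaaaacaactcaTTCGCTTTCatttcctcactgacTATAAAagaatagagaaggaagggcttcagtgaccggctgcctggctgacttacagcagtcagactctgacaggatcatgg
TNFSF15, chr9:114792481-114792780: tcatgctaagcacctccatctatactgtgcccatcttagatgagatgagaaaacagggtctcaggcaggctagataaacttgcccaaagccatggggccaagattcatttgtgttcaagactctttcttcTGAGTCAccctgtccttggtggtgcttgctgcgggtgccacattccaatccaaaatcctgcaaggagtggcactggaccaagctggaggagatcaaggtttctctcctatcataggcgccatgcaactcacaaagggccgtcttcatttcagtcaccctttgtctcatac
The capitals in TNFRSF9 are matches to the NF-kappaB consensus (kappaB, from -74 to -64 relative to the start) and to the AP-1 motif TGANTCA (-44 to -38). Those in TNFSF10 are matches to the interferon-response core GAAANNGAA on the opposite strand (from -186 and from -54) and a TATA box, TATAAA (-31 to -26), and the one in TNFSF15 is an AP-1 match (-120 to -114). The RefSeq starts of TNFRSF9, TNFSF10 and TNFSF15 lie inside the genes as GENCODE draws them, that of TNFSF10 near the upstream edge. Other starts thus exist that are not shown. Of the members, 21 had a promoter in the table, and on either strand kappaB matched in 7 of them (11.3% of all 35116 promoters), AP-1 in 4 (7.71%), the interferon-response core in 5 (8.11%), TATAAA in 4 (11.5%) and the CRE motif TGACGTCA in 0 (1.85%). A member counts once if any of its promoters has a match, while the percentages count every promoter. The counts and the percentages are thus not like measures. A match is a description of the letters and not a site of binding.

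Ligands and receptors of the same superfamilies whose symbols do not follow the rule were examined beside the members. Of 7 such ligands 3 were tested, and LTA (lymphotoxin alpha) was called higher with both siRNAs, with 6.53 and 4.08 normalized counts with siControl, 18.7 and 30.1 with siADAR1 #1 and 21.5 and 36.6 with siADAR1 #2 (log2FC 1.80, adjusted p = 0.0315, and 2.03, adjusted p = 0.0132, limma). The LTA calls rest on 6 and 4 reads with siControl, 20 and 24 with siADAR1 #1 and 19 and 25 with siADAR1 #2. LTB and TNF were not called. They had the replicate difference described above, LTB with 42.5 and 293 with siControl, 72.0 and 1696 with siADAR1 #1 and 281 and 1412 with siADAR1 #2, and TNF with 2.18 and 20.4, 25.2 and 260.02, and 6.80 and 23.4. Of 8 receptors 5 were tested, and FAS, a death receptor, was called lower with siADAR1 #1 (968 and 643 normalized counts in siControl against 278 and 446, log2FC -1.16, adjusted p = 0.0257), while with siADAR1 #2 it had 704 and 792 (log2FC -0.08, adjusted p = 0.862). EDA2R, LTBR, RELT and CD27 were not called. FASLG, the ligand of FAS, had at most 1.46 normalized counts in any library.

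For the lists below, the background over all genes tested was 6.39% higher and 11.0% lower with siADAR1 #1. With siADAR1 #2 it was 11.6% higher and 16.0% lower. Downstream of the receptors, 18 adaptors and ubiquitin ligases were tested. With siADAR1 #1 1 was called higher, XIAP, an inhibitor of caspases (log2FC 0.67, adjusted p = 0.00766), and with siADAR1 #2 2 were called higher and 1 lower, namely TRAF4 (0.60), RBCK1, a subunit of the linear ubiquitin ligase (0.75), and RIPK1, the kinase that binds TNFRSF1A (-0.69). BIRC3, a ubiquitin ligase that NF-kappaB induces, had 463 and 1457 normalized counts with siControl, 1796 and 11580.4 with siADAR1 #1 and 215 and 722 with siADAR1 #2, and was called only between the siRNAs (log2 difference 3.52, adjusted p = 0.0207, limma). Of 16 downstream kinases, 3 were called higher and 2 lower with siADAR1 #1, and 1 higher and 3 lower with siADAR1 #2. TAB1, which activates the kinase TAK1, was lower with siADAR1 #1 (1404 and 1386 in siControl against 391 and 509.99, log2FC -1.64, adjusted p = 0.00299), and MAP3K7, which encodes TAK1, was lower with siADAR1 #2 (3807 and 3637 against 1896 and 2059, log2FC -0.91, adjusted p = 0.00136). MAP2K7, a kinase of JNK, was lower with both (log2FC -0.53, adjusted p = 0.0238, and -0.66, adjusted p = 0.00612), and MAP2K4, the other kinase of JNK, was higher with siADAR1 #1 (0.85, adjusted p = 0.00612).

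Lists in this paragraph stand beside the same background. Of 10 death signalling genes tested, 3 were called higher and 2 lower with siADAR1 #1, and 1 higher and 4 lower with siADAR1 #2. BID, which links the death receptors to mitochondria, was lower with siADAR1 #2 (1934 and 1848 in siControl against 782 and 907, log2FC -1.16, adjusted p = 0.00136), while DIABLO, which counters XIAP, was higher with it (0.60, adjusted p = 0.0119). CASP6 was lower with both (log2FC -1.0 and -1.15, adjusted p = 0.0326 and 0.0125, limma). Among 9 negative regulators, 1 was called lower with siADAR1 #1, and 1 higher and 2 lower with siADAR1 #2. SPATA2, the partner of the deubiquitinase CYLD, was lower with both (log2FC -0.61, adjusted p = 0.0458, and -1.18, adjusted p = 0.00236), ITCH, a ubiquitin ligase, was lower with siADAR1 #2 (-1.03, adjusted p = 0.00177) and TAX1BP1 was higher (0.75, adjusted p = 0.00885). The log2FC of the 5 shedding and processing genes tested ran from -0.13 to 0.12 with siADAR1 #1. With siADAR1 #2 the sheddase ADAM17 was lower (log2FC -0.56, adjusted p = 0.0379), and ADAM10 (0.59, adjusted p = 0.0169) and RHBDF1 (0.58, adjusted p = 0.0369) were higher.

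The background over all genes tested was 17.4% called with siADAR1 #1 and 27.5% with siADAR1 #2. Of the 19 NF-kappaB targets, 1 was called higher and 1 lower with siADAR1 #1, and 2 higher and 2 lower with siADAR1 #2, with a median log2FC of 0.94 and 0.03. With siADAR1 #1 these were NFKB2, higher (log2FC 1.25, adjusted p = 0.0211), and TNFAIP8, lower (-1.06, adjusted p = 0.0313). IL6, an inflammatory cytokine, had 68.6 and 82.6 normalized counts with siControl, 58.9 and 86.7 with siADAR1 #1 and 322 and 535 with siADAR1 #2, and was called higher with siADAR1 #2 alone (log2FC 2.42, adjusted p = 0.00160), as was NFKBIE (2.01, adjusted p = 0.00569, limma). LIF, a cytokine of the same family as IL6, was lower with siADAR1 #2 (log2FC -1.55, adjusted p = 0.0190), and so was IER3 (-0.79, adjusted p = 0.0159).

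With the 4 siADAR1 libraries as 1 group against siControl, limma called 0 members and 0 genes (a background of 0.0%), with an adjusted p of 0.270 for TNFSF15, the lowest of the members. ADAR, the targeted gene, was not called in this fit either (log2FC -2.53 ± 0.32 SE, adjusted p = 0.0881, limma). Differences between the siRNAs count here as spread within the group, so the count of 0 does not show that no change was shared. At an unadjusted p under 0.05 there were 2 members and 2869 genes, and voom on the recovered reads called 0 members and 1 gene. When the mean of both siRNA effects was tested in the 3-group fit, 4 of 22 members (18.2%) were called against 17.8% of all genes tested, so the share of members was near the background. These were TNFSF15 and TNFRSF14 higher and TNFRSF10D and TNFRSF11B lower, with adjusted p from 0.00299 to 0.0183. Of these only TNFSF15 was also called with each siRNA separately, and TNFRSF11B and TNFRSF10D were each called with 1 siRNA and had a log2FC of 0.17 with the other.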

How the data were processed

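The authors checked read quality with FastQC, removed adapters with Atropos, used featureCounts in bcbio-nextgen for gene counts, ran Salmon in parallel and normalized with DESeq2, on GRCh38 per the labels. For that normalization they preferred gene counts that Tximport derived from Salmon. Their methods do not say which counts the deposited values hold. The deposited values are log2 values after a variance-stabilizing transformation by the authors, with 0.347736 for a count of 0. Undone here, 100% of the values gave whole reads (tolerance 0.1), and normalized counts and reads come from this step. Of 58333 gene identifiers, 57830 matched GENCODE 44, which gave symbols, coordinates and exon lengths. Strand use in counting was not given in the sources used here. A count of 0 allows up to 3 reads, worth 2.81 to 4.39 normalized counts (counting error only).

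Log2 values of genes with a mean of 10 or more normalized counts entered limma 3.58.1 (R 4.3.3, eBayes with trend, two-sided, Benjamini-Hochberg over 20247 genes), with 3 residual degrees of freedom for 3 groups and 4 for the siADAR1 libraries as 1 group. A call needed an adjusted p under 0.05 and a log2FC beyond 0.5. The code of the fit was run on simulated reads with known changes and an assumed spread. That run does not show how the calls hold at the spread of these libraries. Every member is named, with up to 4 genes of each list by smallest adjusted p, cell type markers apart. BIRC3, CXCL8, ICAM1, NFKB2, TNFAIP8, RELT, FASLG and genes overlapping a member were named after their values were seen. The members and lists were chosen with earlier results of these data known. SOD2 of the NF-kappaB list had no match. Some genes of the lists are not reported here. Alternatives were other filters, scalings and eBayes settings, fewer libraries, the replicate number as a block, each library left out, and, added after seeing the data, voom on the reads. Promoters were searched for motifs on both strands.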

Additional observations from a re-analysis of the deposited data

Results flagged for a closer look

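Members whose change differed between siADAR1 #1 and siADAR1 #2, by the test of the difference itself in the fit with 3 groups, were flagged, and 11 met this. Given as siADAR1 #1 minus siADAR1 #2 on the log2 scale, 7 were lower with siADAR1 #1, namely TNFSF18 (-5.04), TNFRSF11B (-2.69), TNFRSF21 (-2.65), TNFSF15 (-2.55), TNFSF4 (-2.32), TNFRSF14 (-1.83) and TNFSF13 (-0.99). The other 4 were higher with it, namely TNFRSF1B (2.16), TNFRSF10D (1.82), TNFRSF10A (0.82) and TNFRSF12A (0.59). All 4 ligands among them were lower with siADAR1 #1 than with siADAR1 #2. Only TNFSF18 and TNFRSF21 were called in opposite directions against siControl. For ADAR itself the same difference was -0.35 ± 0.30 (SE, adjusted p = 0.406, limma). With 2 replicates per transfection, no single library could be tested as an outlier.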

How the results depend on the processing

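The number of members called with siADAR1 #1 against siControl was 5 and changed to 3 with eBayes without a trend, to 1 without siControl replicate 1 and to 2 without siControl replicate 2 (range 1 to 5 over the left-out libraries). The share of all genes called fell in the same settings, from 17.4% to 7.30%, 1.54% and 5.75%. Under the other alternatives that left out no single library, the number of members called with siADAR1 #1 was 5 to 7. With siADAR1 #2 it was 8, with a range of 5 to 9 over the left-out libraries (5 without siControl replicate 2 and 5 without siADAR1 #2 replicate 2, where 19.2% and 22.5% of all genes were called in place of 27.5%), and between the siRNAs it was 11, with a range of 10 to 12. With the siADAR1 libraries as 1 group it was 0 under every alternative except testing the mean of both siRNA effects in the 3-group fit, where it was 4 of 22 (18.2%, beside 17.8% of all genes), and the range over left-out libraries was 0 to 0. A lone library left in an arm was assumed to vary like the other groups. At a filter of 50 normalized counts, 6 members were called with siADAR1 #2 (37.5%, beside 36.0% of genes). Between the siRNAs 9 were called at that filter (56.2%, beside 42.5%). On quantile-normalized libraries 10 members were called with siADAR1 #2 (45.5%, beside 27.4% of all genes).
The replicate numbers pair the transfections only weakly. Over 20247 genes, the replicate difference of siControl had a correlation of 0.111 with that of siADAR1 #1 and 0.13 with that of siADAR1 #2, and those of the siRNAs had 0.15, and nothing in the labels says what a number shares. With this number as a replicate block, 7 members were called with siADAR1 #1, 9 with siADAR1 #2, 12 between the siRNAs and 0 with the siADAR1 libraries as 1 group, while the share of all genes called rose to 20.2%, 30.0% and 35.8% in the first 3 and stayed at 0.0% in the last. The member calls that changed against siControl were gains, TNFRSF9 with both siRNAs and TNFRSF8 with siADAR1 #1.
Of 811 alternative values of 55 log2FC values, 752 kept their direction and their side of the threshold, 27 lost a call, 12 gained one and 20 had the other sign, 0 of them called and 0 of them for a called value. With median-centred libraries, TNFRSF1A (0.0587) and TNFSF13B (0.0474) had the other sign with siADAR1 #1. Over the left-out libraries, log2FC ranges that crossed 0 were, with siADAR1 #1, TNFRSF10D -0.0018 to 0.34, TNFRSF11A -0.60 to 0.025, TNFRSF13C -0.13 to 0.32, TNFRSF1A -0.26 to 0.10, TNFSF10 -1.73 to 1.18, TNFSF13 -0.14 to 0.60, and TNFSF13B -0.52 to 0.33. With siADAR1 #2 they were TNFRSF10A -0.0778 to 0.16, TNFRSF10B -0.041 to 0.15, TNFRSF10C -0.33 to 0.62, TNFRSF11B -0.28 to 0.62 and TNFSF13B -0.46 to 0.13. The median log2 value of a library lay up to 0.154 below the mean of the medians (siADAR1 #1 replicate 1). TNFRSF12A was called with siADAR1 #1 on median-centred libraries (log2FC 0.51, adjusted p = 0.0283, range 0.0170 to 0.221), TNFRSF1A with siADAR1 #2 on quantile-normalized libraries (0.55, adjusted p = 0.0111, range 0.0111 to 0.320) and without siControl replicate 1 (0.57), and TNFSF9 with siADAR1 #2 on quantile-normalized libraries (0.60, adjusted p = 0.0335, range 0.0335 to 0.279). TNFSF15 with siADAR1 #1 had an adjusted p of 0.0510 by voom and 0.0748 without a trend, and TNFRSF12A between the siRNAs was 0.49 on quantile-normalized libraries. The causes were not tested. Members with under 20 reads in several libraries (TNFRSF10C, TNFSF4 and TNFSF10) are limited by depth, and 2 replicates limit all.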
